A study of Homo sapiens with 9 samples.

Results

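The integrin and laminin genes were examined in 3 stable lines of T47D, a human luminal breast cancer cell line. Members were genes on the array named as an integrin alpha or beta subunit or as a laminin alpha, beta or gamma chain. The 37 such genes described here, of 43395 gene names on the array, were read by 56 of 58201 probes. T47D-PA6 carried the full-length form of PTH-AS, an intergenic noncoding RNA read from the opposite strand downstream of the parathyroid hormone gene. T47D-PA5 carried an incomplete form that lacks part of the 5′ end, and T47D-VC1 carried the empty vector. The paper used T47D-PA5 as a negative control and treated changes shared by T47D-PA5 and T47D-PA6 as nonspecific. Below, "PTH-AS lines" means only that both carry a PTH-AS construct, complete or not. All 3 lines held the same expression vector backbone, were selected with G418, and were each 1 selected stable clone, so clone and construct cannot be told apart. Each line was measured on 3 one-colour arrays, 9 in all. No probe on the array was named for PTH-AS, and the introduced RNA itself was not examined here. Whether a probe under another name lies within the introduced sequence was not checked.

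Integrins are receptors made of 1 alpha and 1 beta subunit that span the cell membrane and tie the matrix outside the cell to the actin or keratin skeleton inside. Laminins are trimers of an alpha, a beta and a gamma chain and form the sheet of the basement membrane beneath epithelial cells. LAMA3 and LAMB3 encode chains of the epithelial laminin bound by integrins α3β1 and α6β4, and LAMC1 encodes the gamma chain of most other laminins.

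A gene was tested if 1 of its probes stood well above background on all 3 arrays of 1 line or more, and its brightest such probe was read. 24 of the 37 members passed, 23 of them on all 9 arrays. Of the other 13, 9 were well above background on none of the 9 arrays: ITGA4, ITGA8, ITGAD, ITGAX, ITGB3, ITGB6, LAMA1, LAMA2 and LAMB4. ITGA1, ITGA2, ITGAM and LAMC3 were seen on some arrays of a line but never on all 3. Signals below are linear array signals after quantile normalization, log2 fold changes come from 1 limma fit to the 9 arrays, and Benjamini-Hochberg adjustment covered the 20106 genes tested. Nothing says that the 3 arrays of a line came from separate cultures, so the p-values measure only the spread between these arrays.

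Markers were read to check the labelled cell type: all 10 luminal epithelial markers were well above background on every array. The progesterone receptor PGR was the 1 called, lower in T47D-PA6, at −1.07 over T47D-VC1 (limma, adjusted p = 0.00724) and −0.69 over T47D-PA5 (adjusted p = 0.0367). Lower calls covered 5.34% and 6.06% of all genes in these comparisons. Of 7 basal or myoepithelial markers, KRT5 and TP63, which define basal cells, were well above background on none of the arrays, and ACTA2 and MYLK, genes of contractile cells, on all 9. MYLK was called lower in T47D-PA6 over T47D-PA5 (−0.835, limma, adjusted p = 0.0475), beside 6.06% of all genes called lower. ACTA2 was called in no comparison. The summed signal of the 7 was 476 to 956 in T47D-VC1, 1040 to 1070 in T47D-PA5 and 1110 to 1530 in T47D-PA6. Most of it was ACTA2, with geometric means of 600.4, 897.3 and 1246. The part of these cells or genes in the results was not tested. Replicate 1 of every line lay on 1 slide from an earlier scan run than replicates 2 and 3. In T47D-VC1 and T47D-PA5, replicate 2 lay on slide 2 and replicate 3 on slide 3. Both later T47D-PA6 arrays lay on slide 3, so slide and line are partly tied together. Replicate 1 stood apart, with a median absolute log2 difference from replicates 2 and 3 of 0.21 to 0.27, against 0.085 to 0.11 between those. Line differences within each scan run are therefore given for LAMB3, LAMC1, ITGB4, ITGAL and ITGB7. They are not given for the other called members, the markers or the adhesion lists. The part of the scan run in the marker and list results was not tested.

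The largest changes among these members lay in the laminin chains LAMB3 and LAMC1. LAMB3 was higher in both PTH-AS lines, and LAMC1 was lower in T47D-PA6 than in T47D-PA5. Among integrins, ITGB2 was higher in both PTH-AS lines, and ITGA3 was higher and ITGAV lower in T47D-PA6 than in each of the other lines.

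The upstream sequences of LAMB3 and LAMC1 are shown because these genes carry the laminin result. Each is the 250 bases before the first start listed by RefSeq (GRCh38.p14), 5′ to 3′ on the strand of the gene, with GC boxes (GGGCGG, either strand) in capitals. LAMB3 lies at chr1:209652426-209652675 (minus strand, 3 starts listed) and LAMC1 at chr1:183023170-183023419 (plus strand).
LAMB3: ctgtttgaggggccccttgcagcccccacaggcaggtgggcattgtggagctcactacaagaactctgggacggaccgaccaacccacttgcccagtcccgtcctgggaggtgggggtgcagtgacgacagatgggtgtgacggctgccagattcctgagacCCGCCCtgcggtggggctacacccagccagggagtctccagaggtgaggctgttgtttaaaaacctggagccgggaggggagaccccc
LAMC1: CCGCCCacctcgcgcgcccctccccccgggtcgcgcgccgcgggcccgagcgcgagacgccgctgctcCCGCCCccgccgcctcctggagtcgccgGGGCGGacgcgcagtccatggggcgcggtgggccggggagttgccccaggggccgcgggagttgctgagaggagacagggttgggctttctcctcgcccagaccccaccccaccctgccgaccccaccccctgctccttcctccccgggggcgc
The LAMB3 window holds 1 GC box and the LAMC1 window 3. A GC box was found in 13 of the 26 members with an entry and in 42.3% of all 27305 promoters. The AP-1 letters TGANTCA occurred in 1 member, LAMA3 (6.6% of all promoters), and the GAS letters TTCNNNGAA in 2, ITGAE and LAMB2 (6.78%). These matches describe letters in a window and were not tested against the array values.

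In T47D-PA6 over T47D-VC1, the comparison of full-length PTH-AS with the empty vector, 4 of the 24 tested members passed an adjusted p of 0.05, beside 10.0% of all genes tested. LAMB3, ITGB2 and ITGA3 were higher, beside 4.69% of all genes, and ITGAV was lower, beside 5.34%. Higher calls made up 46.8% of all calls, or 59.7% when arrays were scaled to the 75th percentile of detected probes, under which the 4 calls kept their directions. The arrays of the 2 lines did not overlap for 10 of the 24 members, beside 30.9% of all genes. The median log2 fold change was −0.076 over the members and −0.032 over all genes, and 18 of the 24 members lay within 0.5 of 0.

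In T47D-PA5 over T47D-VC1, the comparison of incomplete PTH-AS with the empty vector, 2 members were called, LAMB3 and ITGB2, both higher and 0 lower. This compares with 1.67% of all genes called, 1.37% higher and 0.298% lower. By unadjusted p under 0.05, limma put 5 members past the threshold, beside 15.6% of all genes. The arrays did not overlap for 7 members, beside 23.3% of all genes. The median was 0.025 over the members and −0.026 over all genes. In T47D-PA6 over T47D-PA5, 7 members were called, beside 9.71% of all genes. LAMC1, ITGAL, ITGB4, ITGAV and LAMA3 were lower in T47D-PA6, beside 6.06% of all genes, and ITGB7 and ITGA3 were higher, beside 3.65%. The arrays did not overlap for 10 members, beside 32.7% of all genes, and the medians were −0.057 and −0.00092. By the fold definition of the methods (a ratio over 2 or under 0.6, with no test), LAMB3 and ITGB2 were higher (2 members, beside 3.47% of all genes) and LAMC1 and ITGA10 lower (2 members, beside 4.17%) in T47D-PA6 over T47D-VC1. LAMB3, ITGB2 and LAMC1 were higher by that definition in T47D-PA5 over T47D-VC1 (3 members, beside 2.17%) and 0 were lower (beside 1.76%). In T47D-PA6 over T47D-PA5, LAMC1, ITGAL and ITGB8 were lower by it (3 members, beside 5.31%) and 0 were higher (beside 2.69%). By the methods' unpaired test with adjustment, the calls of ITGA3 in T47D-PA6 over T47D-VC1 and ITGB4 in T47D-PA6 over T47D-PA5 were kept and those of the other members were lost. The 3 comparisons share lines with one another and are not independent.

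**Figure D1:**
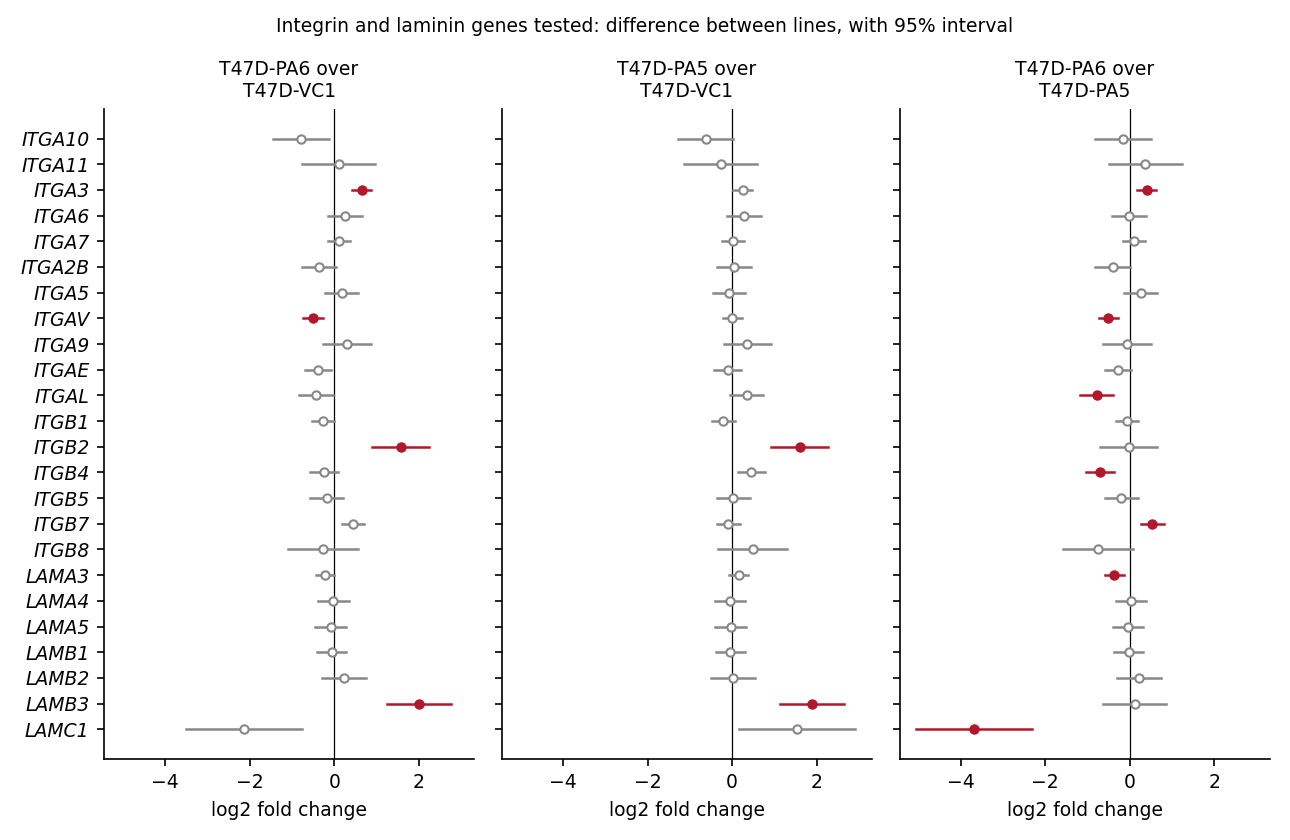
Log2 fold change with its 95% confidence interval for the 24 tested integrin and laminin genes in the 3 comparisons, with filled red points for adjusted p under 0.05. Most members lie near 0, while LAMB3 and ITGB2 lie to the right in both comparisons with T47D-VC1 and LAMC1 lies far to the left in T47D-PA6 over T47D-PA5.

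LAMB3, the laminin beta 3 chain, was read at chr1:209788356-209788415 (hg19, minus strand). Its signal was 59.53, 122.3 and 122.2 in T47D-VC1, 250.4, 428.4 and 427.9 in T47D-PA5, and 306, 461.1 and 408.6 in T47D-PA6 (replicates 1 to 3). Every array of the PTH-AS lines was above every T47D-VC1 array, and replicate 1 was the lowest in each line. The log2 fold change was 2.01 ± 0.33 (SE, n = 3 arrays a line) in T47D-PA6 over T47D-VC1, a 4.02-fold difference (limma, adjusted p = 0.00912). T47D-PA5 over T47D-VC1 gave 1.90 ± 0.33, or 3.72-fold (limma, adjusted p = 0.0305). The 2 PTH-AS lines were not separated, at 0.11 with a 95% interval of −0.643 to 0.862. The difference from T47D-VC1 was 2.36 for T47D-PA6 and 2.07 for T47D-PA5 in the earlier scan run, and 1.83 and 1.81 in the later one. Leaving out any 1 of the 9 arrays kept the T47D-PA6 call, whereas the T47D-PA5 call was lost without replicate 2 or 3 of any line (highest adjusted p = 0.131), without a filter on dim probes (adjusted p = 0.104) and in a fit to only the compared lines (adjusted p = 0.0674).

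LAMC1, the laminin gamma 1 chain, was read at chr1:183114406-183114465 (hg19, plus strand). Its signal was 186.9, 320.9 and 293.8 in T47D-VC1, 727.8, 762.6 and 781.6 in T47D-PA5, and 186.5, 33.86 and 32.5 in T47D-PA6. T47D-PA5 was the highest line on every array, and T47D-PA6 held 1 array near T47D-VC1 replicate 1 and 2 arrays far below all others. T47D-PA6 over T47D-PA5 was −3.68 ± 0.6 (limma, adjusted p = 0.00864), that is 12.8-fold higher in T47D-PA5, and the call was kept with any 1 of the 9 arrays left out. With normexp background correction the difference was −2.68, or 6.42-fold (adjusted p = 0.00193), and the methods' unpaired test gave an adjusted p of 0.102. T47D-PA6 over T47D-VC1 was −2.14 ± 0.6 (adjusted p = 0.0587) and T47D-PA5 over T47D-VC1 was 1.54 ± 0.6 (adjusted p = 0.262), so that LAMC1 did not pass this test against the control in either PTH-AS line. It did pass in T47D-PA6 with normexp (−1.33, adjusted p = 0.0339) and with a trended prior (adjusted p = 0.0366), and in T47D-PA5 in a fit to only the compared lines (adjusted p = 0.0309).

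The LAMC1 values of T47D-PA6 differed between its replicate 1, the 1 array of that line in the earlier scan run, and the other 2. In the earlier run, T47D-PA6 minus T47D-VC1 was −0.00339 on the log2 scale, and in the later run it was −3.21. Within T47D-PA6, the mean of replicates 2 and 3 minus replicate 1 was −2.49 on that scale, a difference that only 76 of 20092 genes reached in either direction. T47D-PA6 minus T47D-PA5 was −1.96 in the earlier run and −4.54 in the later one, and so was negative in both. Without T47D-PA6 replicate 1, LAMC1 was called in all 3 comparisons, at −2.97 over T47D-VC1 (adjusted p = 0.000444), 1.54 for T47D-PA5 over T47D-VC1 (adjusted p = 0.0104) and −4.51 for T47D-PA6 over T47D-PA5 (adjusted p = 9.2e-05). For LAMC1, the mean of replicates 2 and 3 minus replicate 1 was 0.716 in T47D-VC1 and 0.0851 in T47D-PA5. Their replicate 1 arrays shared the slide and scan run of T47D-PA6 replicate 1. What set that T47D-PA6 array apart was not tested.

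**Figure D2:**
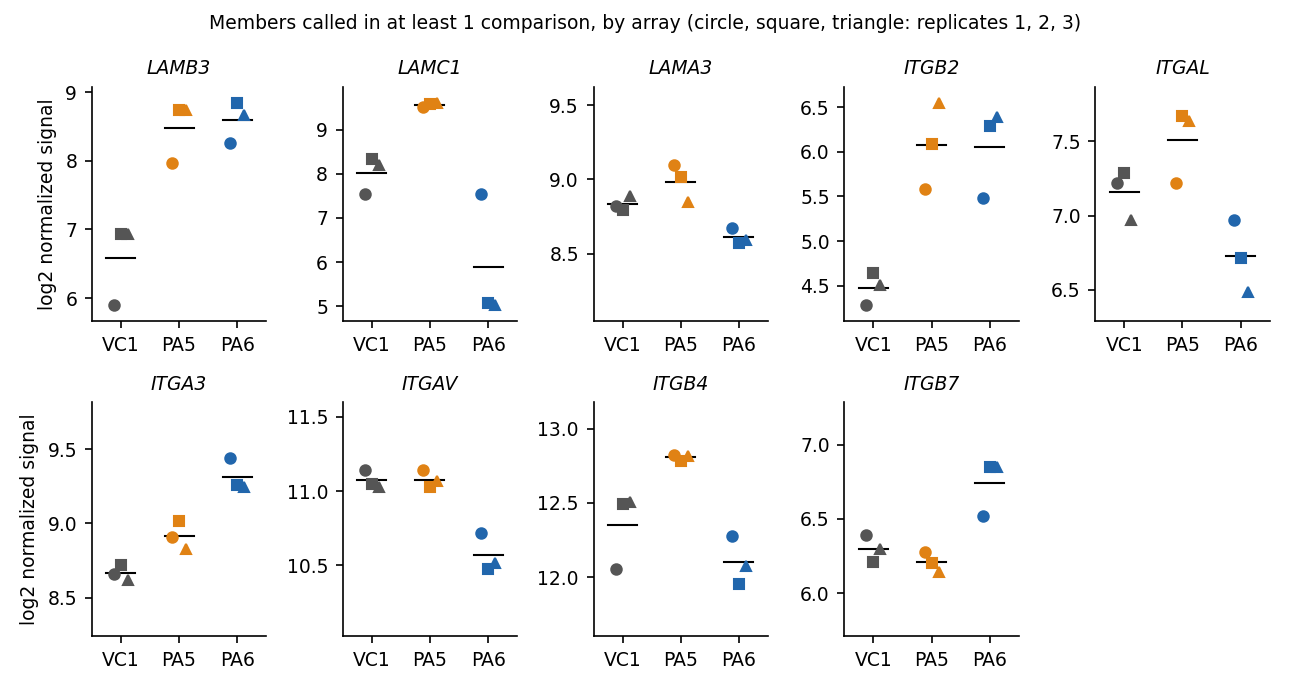
Log2 normalized signal on each array for the 9 members called in at least 1 comparison, by line, with a circle, square and triangle for replicates 1, 2 and 3 and a line at the mean. The y axes differ between panels, and LAMC1 shows replicate 1 of T47D-PA6 above the other replicates of that line.

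LAMA3, the alpha chain of the epithelial laminin, read 452.2, 443.3 and 472.7 in T47D-VC1, 547.1, 517.3 and 459.5 in T47D-PA5, and 407.6, 380.6 and 386.4 in T47D-PA6. Only T47D-PA6 and T47D-PA5 passed the test against each other (−0.37 ± 0.0975, adjusted p = 0.0483), and all T47D-PA6 arrays were below those of the other lines. A dimmer LAMA3 probe did not show this, with a log2 fold change of 0.024, and the call was lost in 7 of 9 fits that left out 1 array (highest adjusted p = 0.166) in the mean of both probes (adjusted p = 0.613), with the slide as a block (adjusted p = 0.0728), with the replicate block (adjusted p = 0.0534), in a fit to only the compared lines (adjusted p = 0.079) and with 75th percentile scaling over detected probes (adjusted p = 0.0738). LAMA4, LAMA5, LAMB1 and LAMB2, chains of other laminins, lay between −0.09 and 0.23 in T47D-PA6 over T47D-VC1 and between −0.06 and 0.02 in T47D-PA5 over T47D-VC1, with none called. Second probes of LAMA4 and LAMA5 differed in sign from the first in T47D-PA6 over T47D-VC1, at 0.56 and 0.17. A LAMC3 probe was well above background on 2 T47D-PA6 arrays and on none of the others, so that gene was not tested.

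Among the alpha subunits that bind laminin, ITGA3 (chr17:48167365-48167424, hg19, plus strand) was higher in T47D-PA6. It read 404, 422.1 and 392.6 in T47D-VC1, 480.7, 517 and 454.1 in T47D-PA5, and 695, 613.3 and 606.4 in T47D-PA6. The 3 lines did not overlap, in the order T47D-VC1, T47D-PA5 and T47D-PA6. T47D-PA6 over T47D-VC1 was 0.65 ± 0.0992, or 1.57-fold (limma, adjusted p = 0.00665), and this call was kept in each of the 22 alternative analyses. T47D-PA6 over T47D-PA5 was 0.40 ± 0.0992 (adjusted p = 0.0405), a call kept in 1 of 9 fits without 1 array (highest adjusted p = 0.155) and lost with the 75th percentile shift (adjusted p = 0.0641), normexp (adjusted p = 0.0623) and only the compared lines (adjusted p = 0.0704), and T47D-PA5 over T47D-VC1 was 0.25 (adjusted p = 0.269).

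ITGA6, the alpha partner of ITGB4 in the hemidesmosome receptor α6β4, read 460.3, 457.9 and 459.8 in T47D-VC1, 693.3, 499.2 and 504.4 in T47D-PA5, and 434.5, 626.5 and 604.9 in T47D-PA6. Replicate 1 was the highest array of T47D-PA5 and the lowest of T47D-PA6, and no comparison passed the test (adjusted p = 0.404, 0.504 and 0.945). ITGA7, another laminin-binding alpha subunit, lay between 0.02 and 0.11 in the 3 comparisons.

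ITGB4, the beta subunit of α6β4 (chr17:73753824-73753883, hg19, plus strand), read 4252, 5750 and 5805 in T47D-VC1, 7248, 7036 and 7224 in T47D-PA5, and 4955, 3974 and 4320 in T47D-PA6. All T47D-PA5 arrays were above the others, while T47D-VC1 and T47D-PA6 overlapped. T47D-PA6 over T47D-PA5 was −0.70 ± 0.143, or 1.63-fold higher in T47D-PA5 (limma, adjusted p = 0.0202), with −0.549 in the earlier and −0.783 in the later scan run. That call was lost without replicate 2 or 3 of T47D-PA5 or T47D-PA6 (highest adjusted p = 0.0854) and with the slide as a block (adjusted p = 0.0518). T47D-PA5 over T47D-VC1 was 0.46 (adjusted p = 0.168).

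ITGB1, the beta subunit shared by most integrins, including α3β1, read 499.6, 495 and 516.8 in T47D-VC1, 504.1, 412.2 and 402.9 in T47D-PA5, and 384.8, 452.7 and 421.7 in T47D-PA6. T47D-PA6 lay below T47D-VC1 on every array, at −0.27 ± 0.116, but did not pass the test (limma, adjusted p = 0.186).

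ITGAV, the alpha subunit of receptors for vitronectin and other proteins with the RGD motif (chr2:187545295-187545354, hg19, plus strand), was lower in T47D-PA6. It read 2263, 2118 and 2091 in T47D-VC1, 2259, 2083 and 2145 in T47D-PA5, and 1686, 1426 and 1462 in T47D-PA6. T47D-VC1 and T47D-PA5 overlapped almost fully and T47D-PA6 lay below both. The log2 fold change was −0.50 ± 0.0997 over T47D-VC1 (limma, adjusted p = 0.0183) and −0.51 ± 0.0997 over T47D-PA5 (adjusted p = 0.0176), and T47D-PA5 over T47D-VC1 was 0.0034 with a 95% interval of −0.224 to 0.231. Each T47D-PA6 call was lost without replicate 2 or 3 of either line compared (highest adjusted p = 0.0805 and 0.0822), and the call over T47D-VC1 was also lost in a fit to only the compared lines (adjusted p = 0.0555).

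Its beta partners ITGB5 and ITGB8 were not called in any comparison. ITGB8 read 23.98 to 68.35 in T47D-VC1, 45.2 to 76.27 in T47D-PA5 and 28.23 to 34.71 in T47D-PA6, so that T47D-PA6 lay below T47D-PA5 on every array (−0.76, adjusted p = 0.237). ITGA5, the fibronectin receptor subunit, and ITGA2B, the platelet subunit, lay between −0.41 and 0.25 across the 3 comparisons. ITGA10, a collagen-binding subunit, read 213.2, 175 and 188.3 in T47D-VC1, 71.83, 162.4 and 163.9 in T47D-PA5, and 113.2, 109.7 and 109 in T47D-PA6. It lay below the control on all arrays of both other lines but was not called by limma over all 9 arrays (adjusted p = 0.12 and 0.347). In T47D-PA6 over T47D-VC1 it was called in the fit to only the compared lines (adjusted p = 0.0172), by the methods' unpaired test (adjusted p = 0.0443), without T47D-PA5 replicate 1 (adjusted p = 0.00442) and in the later scan run alone (adjusted p = 0.00168). ITGA11, also collagen-binding, and ITGA9 lay between −0.27 and 0.37 in the 3 comparisons and were not called. ITGA2, the alpha subunit of the collagen and laminin receptor α2β1, was at the edge of detection, with 14.78, 14.75 and 20.05 in T47D-VC1, 17.78, 14.81 and 14.23 in T47D-PA5, and 13.32, 5.077 and 7.432 in T47D-PA6. It was well above background on 1 T47D-VC1 and 1 T47D-PA5 array and on no T47D-PA6 array, and so was not tested.

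ITGB2, the beta subunit of the leukocyte integrins (chr21:46305926-46305985, hg19, minus strand), read 19.44, 25.06 and 22.75 in T47D-VC1, 47.94, 68 and 93.66 in T47D-PA5, and 44.61, 78.13 and 83.7 in T47D-PA6. Both PTH-AS lines were above the control on every array, with replicate 1 the lowest array in each line. The log2 fold change was 1.57 ± 0.295 in T47D-PA6 over T47D-VC1, or 2.98-fold (limma, adjusted p = 0.0151), and 1.59 ± 0.295 in T47D-PA5 over T47D-VC1, or 3.02-fold (adjusted p = 0.038). The 2 PTH-AS lines differed by −0.02, with a 95% interval of −0.696 to 0.653. The T47D-PA6 call was lost without T47D-VC1 replicate 3 or T47D-PA6 replicate 2 or 3 (highest adjusted p = 0.0633), and the T47D-PA5 call was kept only without replicate 1 of T47D-PA5 or T47D-PA6 (highest adjusted p = 0.141). With normexp the log2 fold changes were 0.601 and 0.615, or 1.52-fold and 1.53-fold, and only the T47D-PA6 call was kept (adjusted p = 0.038 and 0.0867). Without a filter on dim probes both were lost (adjusted p = 0.0525 and 0.121). A second ITGB2 probe was well above background on no array.

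ITGAL, the alpha partner of ITGB2 in LFA-1 (chr16:30533908-30533967, hg19, plus strand), did not follow it. It read 149.2, 156.3 and 125.6 in T47D-VC1, 149.4, 203.6 and 199 in T47D-PA5, and 125.7, 105 and 89.79 in T47D-PA6. T47D-PA6 lay below T47D-PA5 on every array, and the lines overlapped in part with the control. T47D-PA6 over T47D-PA5 was −0.78 ± 0.172 (limma, adjusted p = 0.0262), with −0.249 in the earlier and −1.05 in the later scan run, and the call was lost without replicate 2 or 3 of either line (highest adjusted p = 0.0992). It was also lost with the slide as a block (adjusted p = 0.063), with 75th percentile scaling over detected probes (adjusted p = 0.0594), without a filter on dim probes (adjusted p = 0.0695) and in a fit to only the compared lines (adjusted p = 0.0511). The other alpha partners ITGAD and ITGAX were well above background on no array, and ITGAM on 1 T47D-VC1, 2 T47D-PA5 and 2 T47D-PA6 arrays.

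In a bulk sample, fewer cells of a type and less RNA per cell cannot be told apart, so leukocyte markers were read beside ITGB2. Of 6 such markers on the array, 4 were tested. CD14 was the 1 called, 1.80 higher in T47D-PA6 over T47D-VC1 (limma, adjusted p = 0.00821), beside 4.69% of all genes called higher. It was 1.27 higher in T47D-PA5 over T47D-VC1 but not called (adjusted p = 0.0731). PTPRC, the defining CD45 marker, read 17.97 to 22.46 in T47D-VC1, 13.32 to 27.41 in T47D-PA5 and 16.25 to 21.91 in T47D-PA6, and CD3E was well above background on none of the 9 arrays. The summed signal of the markers was 679 to 920 in T47D-VC1, 664 to 1090 in T47D-PA5 and 852 to 980 in T47D-PA6. The part of these markers in the ITGB2 result was not tested.

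ITGB7, a beta subunit that pairs with ITGA4 or ITGAE (chr12:53585157-53585216, hg19, minus strand), read 84.02, 74.09 and 78.61 in T47D-VC1, 77.59, 73.72 and 70.79 in T47D-PA5, and 91.83, 115.4 and 115.2 in T47D-PA6. T47D-PA6 was the highest line on every array. It was 0.53 ± 0.117 above T47D-PA5 (limma, adjusted p = 0.0272), with 0.243 in the earlier and 0.675 in the later scan run, and this call was lost without T47D-VC1 replicate 3 or replicate 2 or 3 of either compared line (highest adjusted p = 0.11). It was also lost with the slide as a block (adjusted p = 0.0621), with normexp (0.299, adjusted p = 0.0524) and in a fit to only the compared lines (adjusted p = 0.0517). Over T47D-VC1 it was 0.44 (adjusted p = 0.0504), past the threshold with the 75th percentile shift (adjusted p = 0.0338). ITGAE, its partner in the receptor for E-cadherin, lay between −0.39 and −0.10 in the 3 comparisons and was not called, and ITGA4 was well above background on no array.

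**Figure D3:**
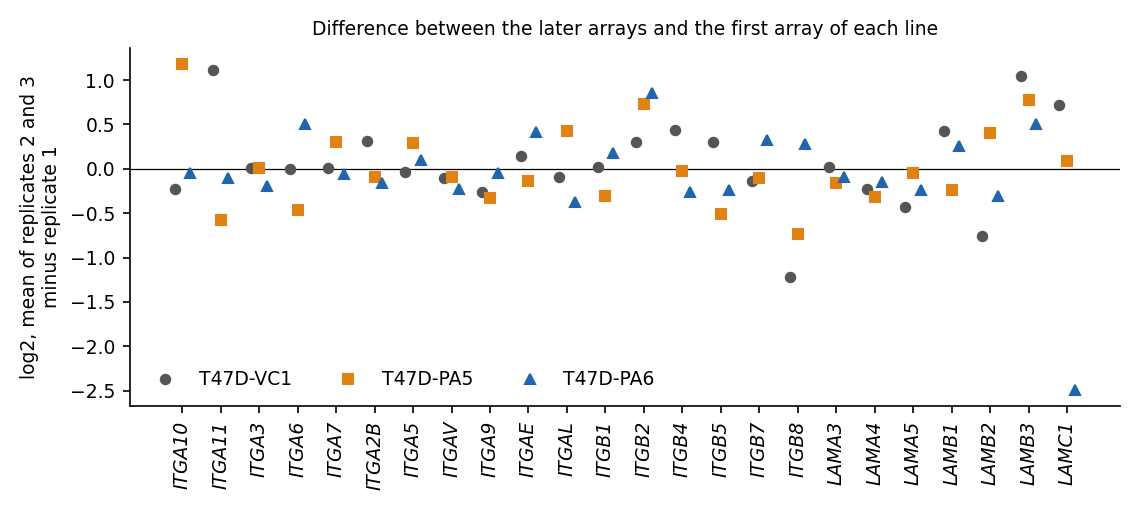
Mean log2 signal of replicates 2 and 3 (later scan run) minus that of replicate 1 (earlier scan run) in each line, for the 24 tested members. Most points lie within 1 of 0, while LAMC1 in T47D-PA6 lies at −2.49.

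The partners of the members outside the 2 families were read from 5 lists of adhesion genes. Of the focal adhesion core, the proteins that tie integrins to actin, 33 of 34 genes were tested. In T47D-PA6 over T47D-VC1, 6 were higher and 0 lower, beside 4.69% and 5.34% of all genes. The median was 0.15 beside −0.032 over all genes. TNS1, a tensin that binds beta subunits, was 1.11 higher (limma, adjusted p = 0.0226), LIMS2 was 1 higher (adjusted p = 0.00665), TGFB1I1, a paxillin relative, was 0.998 higher (adjusted p = 0.00577), and the actin crosslinker FLNA was 0.82 higher (adjusted p = 0.0418). In T47D-PA5 over T47D-VC1 limma called 0 after adjustment, beside 1.67% of all genes. At an unadjusted p under 0.05 it put 6 past the threshold, beside 15.6% of all genes (median 0.097). There FLNA was 0.859 higher (adjusted p = 0.0856) and TNS1 0.69 (adjusted p = 0.199). LIMS2 was 0.275 higher (adjusted p = 0.45) and TGFB1I1 0.0407 (adjusted p = 0.932). In T47D-PA6 over T47D-PA5, 4 were higher and 0 lower (median 0.072), beside 3.65% and 6.06% of all genes. Those 4 were TGFB1I1 (0.96), RSU1 (0.83), LIMS2 (0.73) and ILK, the integrin-linked kinase (0.43).

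Of the basement membrane partners of laminin, 11 of 16 genes were tested. In T47D-PA6 over T47D-VC1, 6 were higher and 0 lower (median 0.71), beside 4.69% and 5.34% of all genes. NTN4, a laminin-related netrin that inserts into the laminin sheet, read 24.54, 24.4 and 21.34 in T47D-VC1, 29.1, 36.45 and 37.25 in T47D-PA5, and 348.3, 242.6 and 233.3 in T47D-PA6. All T47D-PA6 arrays were far above the rest, by 3.53 over T47D-VC1 (limma, adjusted p = 8.81e-05) and 2.99 over T47D-PA5 (adjusted p = 0.000178). SPARC, a collagen-binding matrix protein, was well above background on the 3 T47D-PA6 arrays (41.04, 102.2 and 94.51) and on none of the other 6, at least 5.89-fold above T47D-VC1 and at least 5.66-fold above T47D-PA5. SPARC was tested only because of the line in which it is high, and without it 5 of 10 tested partners were higher in T47D-PA6 over T47D-VC1 (median 0.55). Such a bound sets the mean of the bright line against the mean, per array of the dim line, of the higher of the dim probe's own signal and the lowest signal among probes well above background.

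FBLN1, the matrix glycoprotein fibulin-1, was called in both comparisons with the control, at 1.95 in T47D-PA6 (limma, adjusted p = 0.0012) and 1.55 in T47D-PA5 (adjusted p = 0.00907). So was COL18A1, the basement membrane collagen XVIII, at 1.1 (adjusted p = 0.00169) and 1.33 (adjusted p = 0.00233). These were the 2 genes called in T47D-PA5 over T47D-VC1, both higher (median 0.18), beside 1.37% of all genes called higher. In T47D-PA6 over T47D-PA5, 3 were higher and 0 lower (median 0.4), beside 3.65% and 6.06% of all genes. They were NTN4, SPARC and HSPG2, the proteoglycan perlecan (0.51, limma, adjusted p = 0.0323), or 2 without SPARC (median 0.3).

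Of the integrin ligands, 14 of 22 genes were tested. In T47D-PA6 over T47D-VC1, 3 were higher and 2 lower (median 0.033), beside 4.69% and 5.34% of all genes. ICAM1, the ligand of LFA-1, read 219.9, 193.4 and 165.8 in T47D-VC1, 302.3, 335.8 and 319.6 in T47D-PA5, and 526, 527.5 and 550.7 in T47D-PA6. The 3 lines did not overlap, and ICAM1 was called in all 3 comparisons, at 1.48 in T47D-PA6 over T47D-VC1 (limma, adjusted p = 0.000504), 0.73 in T47D-PA5 over T47D-VC1 (adjusted p = 0.0223) and 0.75 in T47D-PA6 over T47D-PA5 (adjusted p = 0.00792). THBS1, thrombospondin-1, was lower in T47D-PA6, at −1.35 over T47D-VC1 (adjusted p = 0.0107) and −0.95 over T47D-PA5 (adjusted p = 0.0369). TGFB1, whose latent form is bound by integrins with ITGAV, was 1.87 higher in T47D-PA6 over T47D-VC1 (adjusted p = 0.0222), and MFGE8, an RGD protein, was 1.04 higher (adjusted p = 0.0181). MFGE8 was dim in T47D-VC1, at 13.8, 23.21 and 15.87. The lowest signals well above background on those arrays were 12.5, 14.2 and 10.9. ICAM1 was the 1 ligand called in T47D-PA5 over T47D-VC1 (median 0.18), beside 1.67% of all genes. ICAM1 and THBS1 were the 2 called in T47D-PA6 over T47D-PA5 (median 0.042), beside 9.71% of all genes.

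Of the other laminin receptors and hemidesmosome genes, 7 were tested and only DST, the plakin that links α6β4 to keratin, was called. It was lower in T47D-PA6, at −0.72 over T47D-VC1 (limma, adjusted p = 0.00963) and −0.67 over T47D-PA5 (adjusted p = 0.0129), beside 5.34% and 6.06% of all genes called lower. COL17A1, the hemidesmosomal collagen, was well above background on no array. Of the tetraspanins and membrane partners, 7 were tested and 1 was called in 1 comparison, SLC3A2, the CD98 chain that binds beta subunits. It was 0.94 higher in T47D-PA6 over T47D-PA5 (limma, adjusted p = 0.0493), beside 3.65% of all genes called higher.

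**Figure D4:**
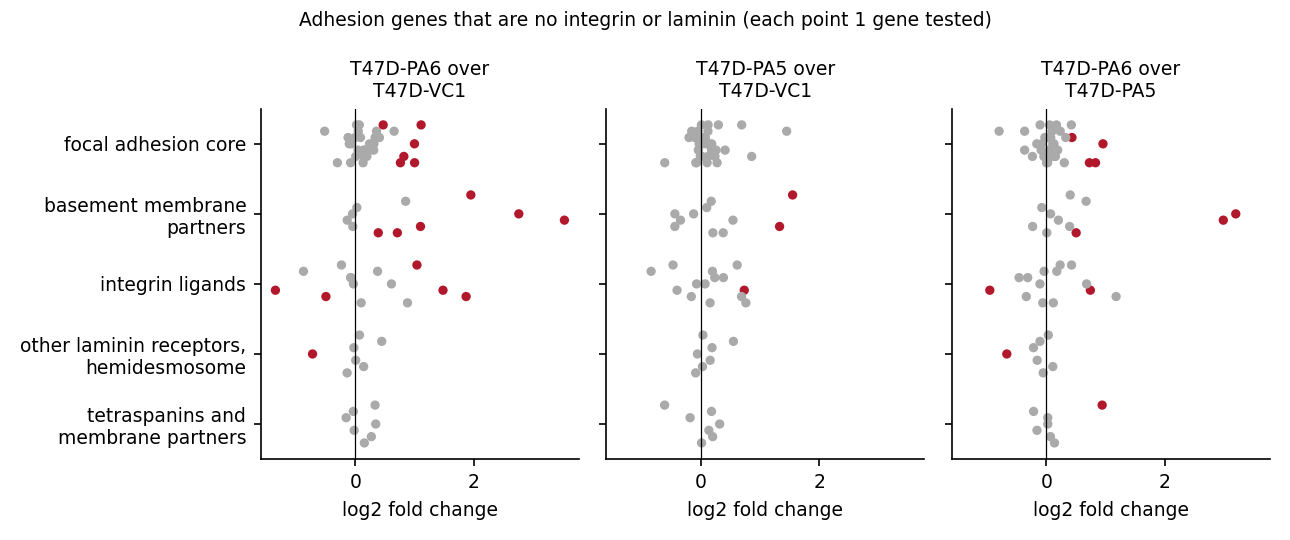
Log2 fold change of each tested gene of the 5 adhesion lists in the 3 comparisons, with red points for adjusted p under 0.05. In T47D-PA6 over T47D-VC1 the 6 called genes of the focal adhesion core and the 6 called basement membrane partners, SPARC among them, all lie above 0. Of all genes tested, 4.69% were called higher in that comparison and 5.34% lower.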

How the data were processed

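Total RNA of T47D-VC1, T47D-PA5 and T47D-PA6 was labelled with Cy3 and hybridised to SurePrint G3 Human Gene Expression v3 arrays. The authors deposited scanner intensity values per spot, and a table of quantile-normalized intensity values per probe made in R, which was used as an alternative. Per the file headers the scanner values were extracted with Agilent Feature Extraction 10.7.1.1, while the submitters' processing notes name version 9.5.1.1. Each array held 62976 spots, of which 46 to 117 were outliers and were dropped, and none was saturated. Control spots were left out. The deposited processed intensity was put on the log2 scale, averaged over the spots of a probe and quantile-normalized. Between 44 and 48% of probes were well above background, and the number of arrays limits the precision.

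Tests used limma 3.58.1 in R 4.3.3 (lmFit, eBayes) on 3 lines and 9 arrays together, with 6 residual and 2.48 prior degrees of freedom. A call is an adjusted p under 0.05. The same code was first checked on simulated arrays. Named in full were the members called in at least 1 comparison, ITGA2, LAMB3 and LAMC1, which the study's supplement lists, their usual partners, and members seen in full in 1 line and on no array of another. For T47D-PA6 against T47D-VC1, that supplement shows LAMC1 close to unchanged, LAMB3 higher and no value for ITGA2. The fit to all 9 arrays differs for LAMC1, at −2.14 on the log2 scale (limma, adjusted p = 0.0587). Within scan runs the LAMC1 value was −0.00339 in the earlier run and −3.21 in the later one. Of each list, at most 4 called genes per comparison were named. Replicate numbers come from the labels, and number 1 also marks 1 slide and scan run. Deviations of same-numbered arrays from their line means correlated at 0.132 to 0.337 between T47D-VC1 and T47D-PA6, 0.166 to 0.273 between T47D-PA5 and T47D-PA6, and 0.0995 to 0.21 between T47D-VC1 and T47D-PA5. The members and gene lists were chosen with earlier results of these data known. Alternatives were the 75th percentile shift, normexp with offset 50, the deposited normalized table, other filters and probe rules, slide and replicate blocks, each array left out, only the compared lines, a trended prior, the methods' unpaired test, and the methods' fold definition (over 2 or under 0.6). The later scan run alone, and the 75th percentile over detected probes, were added after seeing the data. Promoters came from RefSeq, with entries for 26 of the 37 members. Of the genes the naming rule takes, 1 is not reported here.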

Additional observations from a re-analysis of the deposited data

Results flagged for a closer look

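The difference between lines was itself compared between the scan runs by a line-by-run term (limma, 3 residual degrees of freedom), chosen after seeing the data and called for 10.1% of all genes in T47D-PA6 over T47D-VC1, 14.5% in T47D-PA5 over T47D-VC1 and 9.41% in T47D-PA6 over T47D-PA5. Values here are the log2 difference in the later run minus that in the earlier one, which held 1 array of each line. The residual spread of this term came only from replicates 2 and 3 of the later run, which lay closer to each other than to replicate 1, and holds none for the single earlier arrays. Its p-values are therefore not given, and the members past its threshold are listed as a description. In T47D-PA6 over T47D-VC1, the term was −3.21 for LAMC1, −0.7 for ITGB4 and 0.507 for ITGA6. For T47D-PA5 over T47D-VC1, the term was 1.42 for ITGA10, 1.15 for LAMB2, −0.809 for ITGB5, −0.663 for LAMB1, −0.631 for LAMC1 and −0.462 for ITGA6. In T47D-PA6 over T47D-PA5, it was −2.58 for LAMC1, −1.23 for ITGA10 and 0.969 for ITGA6. What differed between the runs was not tested.

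LAMC3, read by 3 probes and not tested, had 1 probe at the edge of detection. That probe had a geometric mean of 13.85 in T47D-PA6, where 2 of 3 arrays were well above background. It read 8.371 in T47D-VC1 and 10.92 in T47D-PA5, with no array well above background. The difference was bounded at only 1.11-fold or more over T47D-VC1 and 1.07-fold or more over T47D-PA5.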

How the results depend on the processing

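Each of 15 member results (the calls above and LAMC1 in each comparison) was recomputed under 22 alternatives. Of these 330 values, 238 stayed on their side of the threshold, 85 lost the call, 7 gained one and 0 changed direction. Leaving out 1 array gave 2 to 6 called members in T47D-PA6 over T47D-VC1, 0 to 3 in T47D-PA5 over T47D-VC1 and 1 to 7 in T47D-PA6 over T47D-PA5, beside 3.50 to 13.8%, 0.492 to 3.09% and 3.61 to 14.7% of all genes. The methods' unpaired test called 2, 0 and 1 members after Benjamini-Hochberg adjustment, and 8, 5 and 8 at the unadjusted threshold (beside 22.1%, 15.0% and 24.2% of all genes), with 432, 39 and 790 of all genes called after adjustment. The later scan run alone called 12, 6 and 9, with 7469, 4309 and 7142 of all genes (37.1%, 21.4% and 35.5%). Without a filter on dim probes, limma called 0 members in T47D-PA5 over T47D-VC1 (4 at an unadjusted p under 0.05, beside 9.75% of all genes), and 1285, 198 and 1262 of 43395 genes. In T47D-PA6 over T47D-PA5, the slide block, the fit on only the compared lines and the methods' fold definition called 3 members each, beside 9.73% and 8.39% of all genes for the first pair and 1608 of 20106 genes for the fold definition. Of the calls, the slide block kept ITGA3, ITGAV and LAMC1, and the compared lines alone kept ITGAV, ITGB4 and LAMC1. In T47D-PA5 over T47D-VC1, normexp called 1 member, beside 2.01% of all genes, and the slide block called 608 of all genes. The fit on only the compared lines called 1146 genes in T47D-PA6 over T47D-VC1, and the fold definition 789 in T47D-PA5 over T47D-VC1. The cause of these differences was not tested.

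The replicate block called 4, 2 and 6 members, beside 13.0%, 2.44% and 12.1% of all genes, the only call that changed being LAMA3 in T47D-PA6 over T47D-PA5 (adjusted p = 0.0534).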
